A study of Mus musculus with 8 samples.

Results

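The 6 genes described here, Vmn2r3, Slc34a2, E130309F12Rik, Corin, Lepr and App, were chosen by their measured liver values, which in the Low AA mice lay well above those in the Control mice. They are 6 of the 11784 genes in the deposited table, and all 6 were found in it by symbol. Livers came from male C57BL/6J mice that were switched at 9 weeks of age to an amino acid defined diet, either Control, coded TD.140711, or Low AA, coded TD.140712. The Low AA diet supplied fewer of its calories as amino acids and more as carbohydrate. The mice stayed on the diet for about 4 months, were fasted overnight for about 16 hours, and gave 4 livers a diet, each sequenced as polyadenylated RNA. They were wild-type mice with no other treatment, and a mouse is named here by its diet and a number from 1 to 4 that does not pair it with a mouse of the other diet. Because the diet difference picked these genes, their own fold changes are given as a description and carry no test. Values are whole numbers, taken here to be read counts that had been scaled per mouse and rounded before deposit, and called scaled read counts below.

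All 6 genes encode proteins that sit in or span a membrane. Lepr is the receptor for leptin, the hormone by which fat tissue reports energy stores, and the liver is known for short and soluble forms of it as well as the long form that signals through JAK2 and STAT3. Vmn2r3 belongs to the type 2 vomeronasal receptors, G protein-coupled receptors of pheromone-sensing neurons. Slc34a2 encodes NaPi-2b, a sodium-dependent phosphate transporter best known from intestine and lung. Corin is a membrane-anchored serine protease that cuts the precursor of atrial natriuretic peptide and is best known from the heart. App encodes the amyloid precursor protein, which many tissues make and which secretases cut at the cell surface and inside the cell. E130309F12Rik is an older symbol of Plppr1, a relative of the lipid phosphate phosphatases best known from the nervous system.

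The promoters of 3 of these genes are shown because they hold the only matches of 2 short motifs in the set, and that of Vmn2r3 is shown beside them as the one least rich in G and C. Each runs from 250 bases before to 50 bases after a RefSeq start on GRCm38.p6, 5′ to 3′ on the strand of the gene. Capitals mark TTGCGCAA, the palindrome bound by C/EBP factors, and CCAAT, the CCAAT box, which stands as ATTGG where it lies on the other strand. Slc34a2 is at chr5:53049103-53049402 (plus strand), Corin at chr5:72504491-72504790 (minus), Lepr, the more upstream of its 2 listed starts, at chr4:101717157-101717456 (plus) and Vmn2r3 at chr3:64287368-64287667 (minus).

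Slc34a2: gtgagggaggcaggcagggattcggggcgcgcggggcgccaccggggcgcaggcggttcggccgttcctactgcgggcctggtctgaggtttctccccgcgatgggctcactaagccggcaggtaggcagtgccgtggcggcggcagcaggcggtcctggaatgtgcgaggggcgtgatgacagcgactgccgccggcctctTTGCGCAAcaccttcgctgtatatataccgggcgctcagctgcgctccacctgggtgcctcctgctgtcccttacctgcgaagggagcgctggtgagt

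Corin: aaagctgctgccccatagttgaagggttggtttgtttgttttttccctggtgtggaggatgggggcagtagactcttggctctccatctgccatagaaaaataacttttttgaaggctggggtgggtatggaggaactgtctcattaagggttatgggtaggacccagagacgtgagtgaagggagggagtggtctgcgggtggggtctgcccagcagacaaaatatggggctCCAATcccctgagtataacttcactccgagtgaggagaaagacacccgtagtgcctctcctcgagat

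Lepr: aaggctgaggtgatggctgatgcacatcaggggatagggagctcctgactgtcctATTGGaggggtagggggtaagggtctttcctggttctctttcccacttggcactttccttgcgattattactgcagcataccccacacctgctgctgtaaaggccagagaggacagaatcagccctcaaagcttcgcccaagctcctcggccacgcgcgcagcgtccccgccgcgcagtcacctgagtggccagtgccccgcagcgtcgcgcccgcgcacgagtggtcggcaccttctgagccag

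Vmn2r3: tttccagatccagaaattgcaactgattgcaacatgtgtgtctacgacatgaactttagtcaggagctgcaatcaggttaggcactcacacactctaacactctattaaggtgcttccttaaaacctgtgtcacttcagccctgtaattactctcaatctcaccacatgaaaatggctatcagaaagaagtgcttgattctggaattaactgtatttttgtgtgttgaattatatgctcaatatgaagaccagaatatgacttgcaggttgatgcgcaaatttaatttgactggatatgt

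The C/EBP palindrome begins 48 bases before the start of Slc34a2, and it occurs in 60 of 32851 RefSeq promoters of the same length, or 0.183%. The CCAAT box begins 17 bases before the start of Corin and 195 bases before that of Lepr, and 37.4% of all promoters hold one. Motifs were searched on both strands, and none of the 7 member promoters held the STAT site TTCNNNGAA (8.3% of all promoters), the C/EBP-ATF composite TGATGNAAT (0.965%), the cAMP response element TGACGTCA (1.79%), the D-box TTATGTAA (0.938%), the TATA box TATAAA (13.6%), the E-box CACGTG (7.15%), the glucocorticoid half-site AGAACA (6233 promoters) or the nuclear receptor half-site AGGTCA (16.3%). The GC box GGGCGG, in 35.7% of all promoters, was in 3 of the 7, those of E130309F12Rik, App and the more downstream start of Lepr. A match is a run of letters, and binding was not measured. In base composition the promoters ran from 38.3% G and C with 2 CpG in Vmn2r3 to 71.0% with 30 CpG in App, around a median of 52.7% and 7 CpG over all promoters. In GENCODE, 1 of the 3 Slc34a2 transcripts begins further upstream than the RefSeq start used here, and the others begin within 1 base of it. All 7 Corin transcripts begin downstream of its RefSeq start. Most annotated Vmn2r3 transcripts begin further upstream than the RefSeq start used for this window.

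Facts of the whole table bear on these values as follows. Scaled read counts summed to between 27876664 and 30799385 per mouse, and their median over genes was between 433.0 and 449.0. Every gene listed had a value of at least 28 in 3 or more mice, so a gene silent in 1 diet could enter only through the other. By that minimum Vmn2r3, Slc34a2, E130309F12Rik and Corin, 4 of the 6, entered through the Low AA mice, and Lepr and App would have entered on the Control mice alone. Of the 251 listed genes that did not reach the minimum in 3 Control mice, 16 had every Low AA mouse above every Control mouse. The liver label matched its markers, with all 8 hepatocyte markers listed. They summed to between 2348267 and 2563511 in Low AA mice and between 2087537 and 2424032 in Control mice, ranges that lean higher on Low AA but overlap. In this bulk tissue, more cells of a type and more RNA per cell cannot be told apart.

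Without overlap between diets, every Low AA mouse stood above every Control mouse for all 6 genes. This holds for 3.26% of all genes in the table, and the choice of the members fixed it. Among 12 genes called higher on the Low AA diet by limma at an adjusted p under 0.05, 0.102% of all genes tested, these are 6, again by choice. That number was 5 with equal column totals and 4 without the mean-variance trend of the fit. It was 1 among the 8000 genes with the highest mean, where of the 6 only Lepr and App were tested. With a mouse left out it was between 3 and 5, lowest without Low AA mouse 2 or 3. The other 6 were Ugt1a9, Cyp4a31, Cyp3a11, Acnat2, Ces2g and Rpl22l1. In a ranking of all genes by log2 fold change, Vmn2r3 was number 2, Slc34a2 number 3, E130309F12Rik number 5, Corin number 8, Lepr number 10 and App number 24. Ugt1a9 at number 13, with 1.76 on the log2 scale, and Cyp4a31 at number 26, with 1.26, are the called genes ranked next to the members.

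**Figure D1:**
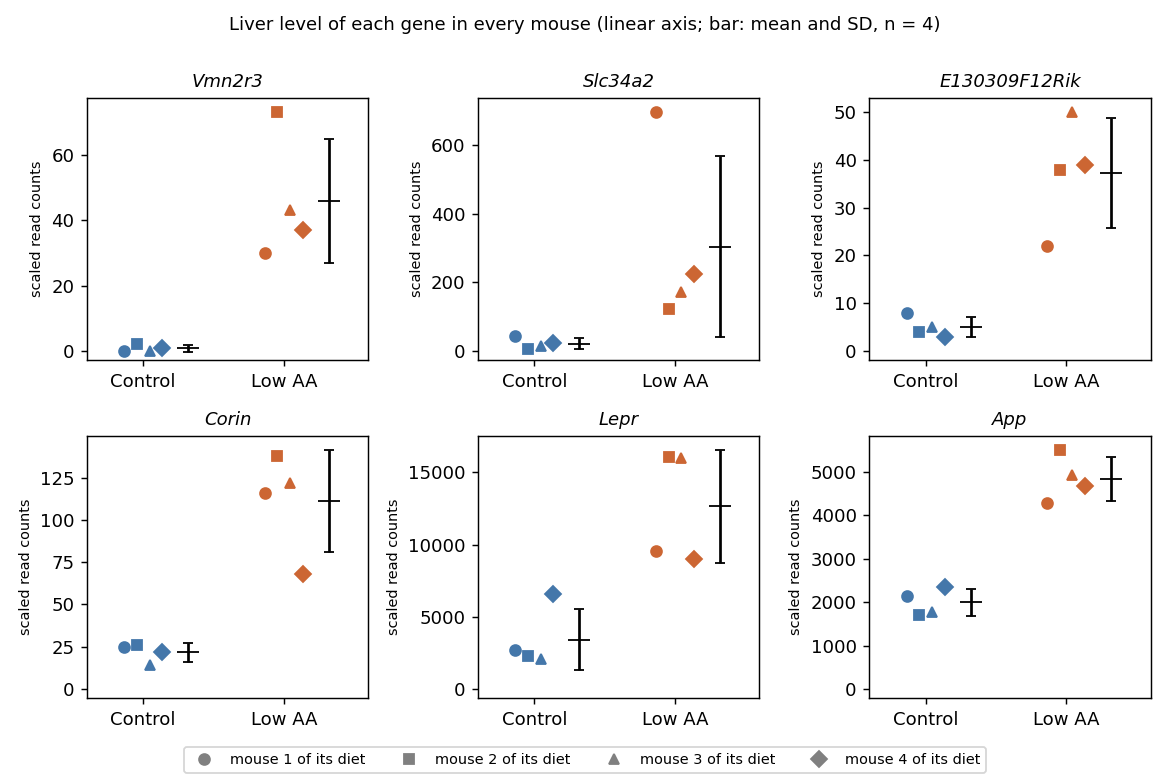
Scaled read counts of the 6 genes in each liver, on linear axes that differ between panels, with a marker shape for the mouse number within its diet and a black bar for the mean and SD of 4 mice. The Low AA points lie above the Control points in every panel, Slc34a2 has 1 Low AA mouse at 695, and Lepr has 1 Control mouse at 6566.

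Lepr was the most abundant of the 6. Its scaled read counts were 9578, 16037, 15963 and 8984 in Low AA mice 1 to 4 and 2711, 2294, 2081 and 6566 in Control mice 1 to 4. Low AA mice 2 and 3 were nearly equal and high, mice 1 and 4 lower, and Control mouse 4 stood well above the other Control mice. The means were 12641 ± 3887 and 3413 ± 2118 (SD, n = 4 each), so the log2 fold change was 2.004. The lowest Low AA mouse had 1.37 times the value of the highest Control mouse, the narrowest gap of the 6. Without Control mouse 4 the log2 fold change was 2.38, and without Control mouse 3 it was 1.82. Ranked within each mouse, Lepr moved from a mean percentile of 88.6 among all listed genes on the Control diet to 97.3 on the Low AA diet. The gene lies on chromosome 4 from 101717404 to 101815352, and GENCODE M21 annotates 7 transcripts. The deposited table has 1 value for the gene, so the signalling and the shorter receptor forms were not separated.

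App had values of 4274, 5499, 4926 and 4665 in Low AA mice 1 to 4 and of 2144, 1708, 1775 and 2354 in Control mice 1 to 4. Mice within a diet were close to each other, and the diets were clearly apart. The means of 4841 ± 514 and 1995 ± 307 (SD, n = 4 each) give a log2 fold change of 1.28, the smallest of the 6. Its spread was also the smallest, with a coefficient of variation of 10.6% among Low AA and 15.4% among Control mice. With each mouse left out in turn the log2 fold change stayed between 1.21 and 1.37. App lies on chromosome 16 from 84949685 to 85173766.

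Slc34a2 had the widest spread among the Low AA mice. Its values were 695, 123, 173 and 225 in Low AA mice 1 to 4 and 42, 6, 14 and 23 in Control mice 1 to 4. Low AA mouse 1 held more than the other Low AA mice together, and Control mouse 1 was the highest on its diet. With means of 304 ± 264 and 21.2 ± 15.5 (SD, n = 4 each), the log2 fold change was 3.73, and the lowest Low AA mouse was 2.93 times the highest Control mouse. Without Low AA mouse 1 the log2 fold change was 3.22. Among the Low AA mice the highest value was 5.65 times the lowest, and among the Control mice 7.0 times. The gene lies on chromosome 5 from 53038081 to 53071664.

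Corin, also on chromosome 5, from 72300025 to 72504473, had values of 116, 138, 122 and 68 in Low AA mice 1 to 4 and of 25, 26, 14 and 22 in Control mice 1 to 4. Low AA mouse 4 was the lowest on its diet, though still 2.62 times the highest Control mouse. The means were 111.0 ± 30.1 and 21.8 ± 5.44 (SD, n = 4 each), so the log2 fold change was 2.29, which stayed between 2.10 and 2.51 with a mouse left out. None of 6 striated muscle markers was among the listed genes.

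Vmn2r3 was close to undetected on the Control diet. It was listed at 30, 73, 43 and 37 in Low AA mice 1 to 4 and at 0, 2, 0 and 1 in Control mice 1 to 4. Low AA mouse 2 was the highest, and Control mice 1 and 3 had none. Summed over mice, 183 against 3 scaled read counts give a ratio of 61.0, with an exact binomial 95% interval from 20.5 to 299. That interval covers counting error only, treats the scaled values as counts and describes the values that picked the gene, so it is no test of the diet. The log2 fold change of 4.82 rests on the added pseudocount of 1, with 6.80 at a pseudocount of 0.1 and 3.09 at 5. Vmn2r3 lies on chromosome 3 from 64257215 to 64289709, among 4 other protein-coding vomeronasal receptor genes within 200 kb, none of them in the table.

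E130309F12Rik had values of 22, 38, 50 and 39 in Low AA mice 1 to 4 and of 8, 4, 5 and 3 in Control mice 1 to 4. Low AA mouse 1 was the lowest on its diet and Control mouse 1 the highest on its own, and the gap between them was 2.75 times. The means of 37.2 ± 11.5 and 5.0 ± 2.16 (SD, n = 4 each) give a log2 fold change of 2.68, or 2.06 with a pseudocount of 5. The gene, named Plppr1 in GENCODE, lies on chromosome 4 from 49059273 to 49340259.

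**Figure D2:**
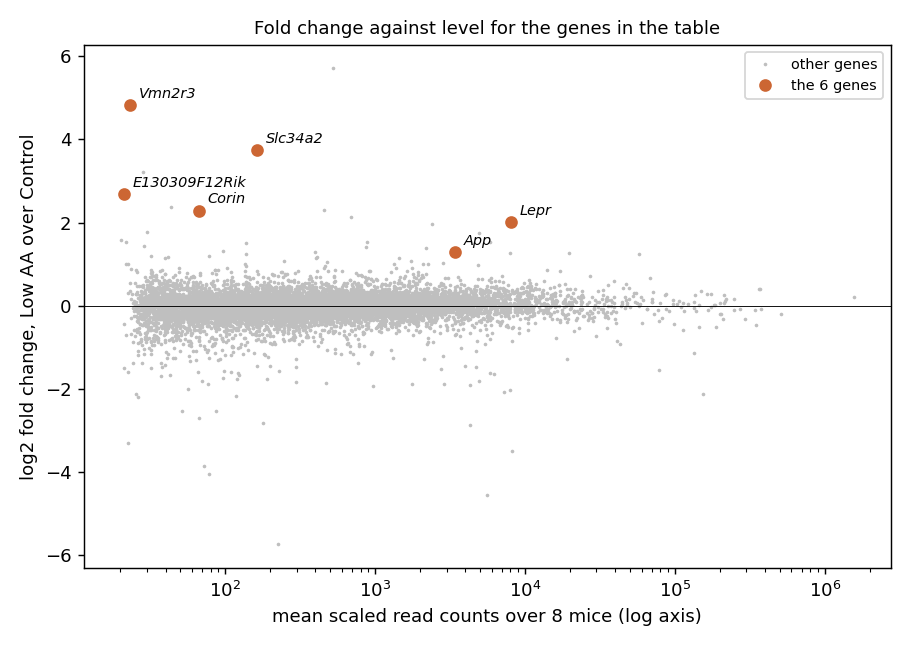
Log2 fold change of each gene in the table against its mean scaled read counts over 8 mice, on a log axis, with the 6 genes in orange. Vmn2r3, E130309F12Rik, Corin and Slc34a2 lie in the lower part of the level axis, and App and Lepr further up it with smaller fold changes of 1.28 and 2.004.

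Levels can be set side by side only per length, here as scaled read counts per kilobase of annotated exon. On the Low AA diet the order of these levels was Lepr at 1793 (1275 to 2275 over mice), App at 372 (329 to 423), Slc34a2 at 60.6 (24.5 to 139), Corin at 20.6 (12.6 to 25.6), E130309F12Rik at 5.12 (3.03 to 6.88) and Vmn2r3 at 2.63 (1.72 to 4.19). Slc34a2 and Corin overlapped in this order, as did E130309F12Rik and Vmn2r3, and the other neighbours did not. On the Control diet Lepr at 484 and App at 154 were again the 2 highest, and Slc34a2 at 4.24 and Corin at 4.03 per kilobase overlapped. The length of Vmn2r3, 17411 bases over 9 transcripts, is a generous one and lowers its value per kilobase.

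Reads of 100 bases could be shared with similar genes, so each 100-base window of the annotated transcripts was looked up in those of all other genes. Slc34a2, Corin and App had 0 windows in common with another gene. Vmn2r3 shared 0.858% of 18181 windows, with its neighbours Vmn2r1 and Vmn2r2 among others, Lepr shared 0.667% with Gm12797, and E130309F12Rik 1.46% with Gm12451. Identical stretches of a read's length thus cover little of these genes, and the matching of near-identical reads was not examined.

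Within a diet the genes did not follow 1 order of mice. Low AA mouse 2 was the highest and mouse 3 the next for Vmn2r3, Corin, Lepr and App, whereas mouse 1 was the highest for Slc34a2 and mouse 3 for E130309F12Rik. On the Control diet, mice 1, 2 and 4 were each the highest for 2 genes. Across the 8 mice the z-scored profiles of Vmn2r3 and Corin were the nearest pair of the 6, with a root mean square distance of 0.27, and those of Lepr and Slc34a2 the farthest, with 0.66. The distance spans both diets, so it holds the diet difference that picked the 6 genes and shows no nearness apart from it. By the same distance, which both diets and the 8 livers share, the nearest profiles of other genes included Arhgef2 to Vmn2r3 (0.22) and to Corin (0.23), Vmp1 to App (0.15), Dnaja2 to E130309F12Rik (0.23), Car2 to Lepr (0.24) and Pxmp4 to Slc34a2 (0.26). Next came Ephb4 for Vmn2r3 (0.25), Etfdh for Corin (0.26), Ugt1a9 for App (0.24), St5 for Lepr (0.28) and Igf2bp2 for Slc34a2 (0.29). In these genes, which the distance picked from the table, log2 fold changes ran from 0.24 in Dnaja2 to 1.76 in Ugt1a9.

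**Figure D3:**
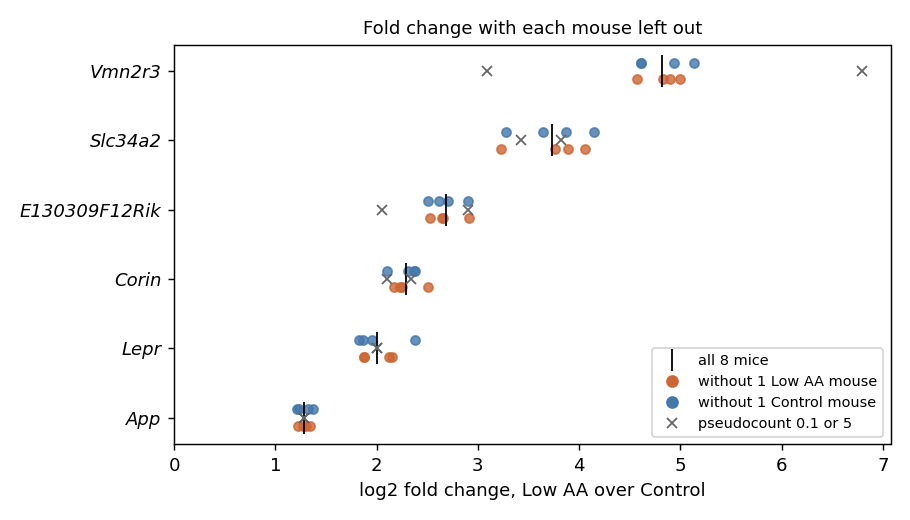
Log2 fold change of each of the 6 genes with all 8 mice (black line), without 1 Low AA mouse (orange), without 1 Control mouse (blue) and with other pseudocounts (crosses). No point falls near 0, and none could fall below it, because the diets did not overlap in these genes. Slc34a2 spreads from 3.22 to 4.15 over the mice left out, and the crosses lie farthest from the line for Vmn2r3.

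Control mouse 2 stood apart from the other livers in Cela1, the 1 of 8 pancreatic acinar markers in the table, with 36587. The remaining Control livers held 130, 167 and 178, and the Low AA livers between 190 and 288. Without that mouse the log2 fold changes were 5.13 for Vmn2r3, 3.28 for Slc34a2, 2.62 for E130309F12Rik, 2.38 for Corin, 1.87 for Lepr and 1.21 for App. Summed markers of other cell types overlapped between diets. The 7 of 10 cholangiocyte markers listed ran from 1221 to 1808 in Low AA mice and from 1590 to 2789 in Control mice, and the 10 stellate cell markers from 9096 to 11305 and from 9205 to 11546. Those of endothelial cells, 9 of 9, ran from 8436 to 9083 and from 6977 to 9670, those of Kupffer cells, 8 of 8, from 8856 to 12414 and from 8205 to 12419, and those of adipocytes, 2 of 5, from 4547 to 5969 and from 2259 to 5970. Red blood cell markers, 4 of 5, ran from 9211 to 13541 and from 7206 to 27464, and neuronal markers, 2 of 5, from 162 to 200 and from 160 to 272. The part of such cells in the 6 genes was not tested.

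The partners of these genes in their pathways were listed by function, and each was tested in the fit of all genes. Of 67 partner genes in the table, 0 passed an adjusted p under 0.05 in limma in either direction, where 0.102% of all genes passed higher and 0.297% lower. At an unadjusted p under 0.05 there were 13 of 67, and 1395 of all 11784 genes. The median log2 fold change was -0.05 over the 67, beside 0.0023 over all genes. Every Low AA mouse was above every Control mouse for 3 of the 67, Bace1, Tmprss6 and Ppapdc1b, beside the 3.26% of all genes. It was below every Control mouse for 2, Fgfr1 and Npr2, beside 3.55% of all genes. In the pairs of means that follow, the Low AA mean comes first.

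Of the leptin receptor's partners 15 of 16 were in the table, with a median log2 fold change of 0.02, and 1 had an unadjusted p under 0.05. That was Stat5a, a transcription factor activated by cytokine receptors, with a Low AA mean of 397 ± 95.7 and a Control mean of 272 ± 32.2 (SD, n = 4 each), and its log2 fold change was 0.52 (standard error, SE, 0.18, adjusted p = 0.266 by limma). Its close relative Stat5b had 0.24 (adjusted p = 0.496 by limma). Jak2, the kinase bound to the receptor, and Stat3, the factor it activates, had log2 fold changes of -0.18 and -0.16. Socs3, an inhibitor that STAT3 induces, ran from 171 to 368 in Low AA mice and from 194 to 576 in Control mice. Leprot, which governs how much receptor reaches the surface and lies 58.0 kb upstream of Lepr on the same strand, had 500.2 ± 21.3 against 542 ± 77.8 (SD, n = 4 each), for a log2 difference of -0.11 (SE 0.12, adjusted p = 0.8 by limma). Leprot thus overlapped between diets, where the mean of Lepr on the Low AA diet was 3.70 times that on the Control diet.

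Of the genes that cut, bind or clear APP, 22 of 25 were in the table, 6 with a positive and 16 with a negative log2 fold change, and their median was -0.11. An unadjusted p under 0.05 was reached by 4 of them, Bace1, Mme, Adam10 and Clu. Adam10, another protease of the list, had 0.23 and Clu -0.30 (adjusted p = 0.421 and 0.42 by limma). Bace1, the beta-secretase that makes the first cut towards amyloid beta, had 2019, 2083, 2195 and 1400 in Low AA mice 1 to 4 and 1184, 1050, 1286 and 1256 in Control mice 1 to 4. All Low AA mice were above all Control mice, with mouse 4 the closest. The log2 fold change of 0.67 (SE 0.15) did not pass (adjusted p = 0.0897 by limma), and only without Low AA mouse 4 did it pass, with 0.82 (adjusted p = 0.0202 by limma, where the range with each mouse left out reached 0.299). Mme, or neprilysin, a protease that degrades amyloid beta and natriuretic peptides, had 596 ± 173 against 313 ± 80.2 (SD, n = 4 each), for a log2 difference of 0.90 (SE 0.25, adjusted p = 0.178 by limma), with 1 Low AA mouse at 341 inside the Control range. The gamma-secretase subunits Psen2, Ncstn, Aph1a, Aph1b and Psenen had log2 fold changes from -0.21 to -0.01. Aplp2, the relative of APP in the table, had 8323 ± 207 against 8266 ± 481 (SD, n = 4 each), for a log2 difference of 0.01 beside 1.28 for App itself.

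Phosphate transport genes numbered 8 of 13 in the table, with 2 positive and 6 negative and a median of -0.16. Of these, 2 had an unadjusted p under 0.05, Fgfr1 and Slc9a3r1. The phosphate importers Slc20a1 and Slc20a2 had log2 fold changes of -0.20 and 0.23 (adjusted p = 0.825 and 0.528 by limma), and the exporter Xpr1 had -0.11. Slc34a1 and Slc34a3, the relatives of Slc34a2, were not among the genes listed. Fgfr1, a receptor for fibroblast growth factors, had a Low AA mean of 121 ± 12.3 and a Control mean of 201 ± 46.5 (SD, n = 4 each) without overlap between the diets, for a log2 difference of -0.71 (SE 0.18, adjusted p = 0.135 by limma). Slc9a3r1, a scaffold that anchors phosphate transporters, had -0.58 (SE 0.16, adjusted p = 0.181 by limma).

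Natriuretic peptide genes numbered 8 of 11 in the table, with a median of 0.05, and the peptides themselves, Nppa, Nppb and Nppc, were not listed. An unadjusted p under 0.05 was reached by 3, Mme, Npr2 and Npr3, the last with a log2 fold change of 0.49 (adjusted p = 0.37 by limma). Pcsk6, the protease that activates corin, had 3530 ± 233 against 3298 ± 263 (SD, n = 4 each), for a log2 difference of 0.10 (adjusted p = 0.758 by limma). Furin, a related convertase, had 0.05. Npr2, a receptor for C-type natriuretic peptide, had 1055 ± 113 and 1510 ± 379 (SD, n = 4 each), without overlap between the diets, a log2 fold change of -0.49 (SE 0.16, adjusted p = 0.257 by limma). Of the other membrane-anchored serine proteases, 4 of 15 were listed. Tmprss6, which restrains hepcidin in hepatocytes, had 0.16 with no overlap between diets (adjusted p = 0.551 by limma), Hpn had -0.06, Tmprss2 -0.44 (adjusted p = 0.471 by limma) and St14 -0.58 (adjusted p = 0.53 by limma).

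Of the relatives of E130309F12Rik and the lysophosphatidic acid genes, 9 of 17 were in the table, with a median of -0.01. An unadjusted p under 0.05 was reached by 3 of them, Ppap2c, Ppapdc1b and Lpar2. Lpar2 had a log2 fold change of -0.69 (SE 0.25, adjusted p = 0.305 by limma) at low values, with means of 20.2 on Low AA and 33.5 on Control. Under older symbols the list included Ppap2c (Plpp2), with a log2 fold change of -0.43 (adjusted p = 0.279 by limma), and Ppapdc1b (Plpp5), with 0.31 and no overlap between diets (adjusted p = 0.296 by limma). No other Plppr gene was listed. Of 359 vomeronasal receptor and signalling genes other than Vmn2r3, 3 were in the table, Vmn2r29, Trpc2 and Gnai2. Only Vmn2r29 among them is a receptor gene, and Gnai2 had a log2 fold change of -0.06. Vmn2r29 had a Low AA mean of 25.5 ± 5.57 and a Control mean of 38.8 ± 8.22 (SD, n = 4 each), for a log2 difference of -0.59 (SE 0.25, adjusted p = 0.391 by limma), and Trpc2, a channel of vomeronasal neurons, had 0.19 (adjusted p = 0.771 by limma).

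Genes near the 6 in the genome were also tested, since their position and not their values brought them in. Within 200 kb of the members, 18 genes were in the table, and 1, Acnat2, passed, where 0.102% of all genes passed higher. Acnat2, whose family joins fatty acids to amino acids, lies 39.6 kb beyond the end of E130309F12Rik on the other strand. Its values were 2875, 3090, 3337 and 1851 in Low AA mice 1 to 4 and 1232, 1248, 1417 and 1529 in Control mice 1 to 4. Low AA mouse 4 was the lowest on its diet, and the diets did not overlap. The log2 fold change was 1.01 (SE 0.17, adjusted p = 0.0414 by limma), and it passed in 1 of the 8 fits with a mouse left out, that without Low AA mouse 4, with limma adjusted p between 0.00514 and 0.138 over the 8. Of its windows, 14.1% are shared with Acnat1, which lies 107 kb from E130309F12Rik and had 4611 ± 644 against 4221 ± 1146 (SD, n = 4 each), for a log2 difference of 0.16 (adjusted p = 0.812 by limma). The bile acid conjugating enzyme gene Baat, further along, had -0.11, Mrpl50 -0.08 and Zfp189 0.21.

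The other neighbours had log2 fold changes between -0.16 and 0.42. Near Slc34a2, 5033403H07Rik had the highest, 0.42 (adjusted p = 0.258 by limma), Anapc4 had -0.03, Sel1l3 0.14 and 1810013D10Rik 0.22. Like Acnat2, 5033403H07Rik had every Low AA mouse, at 350 or more, above every Control mouse, at 340 or less. This holds for 3.26% of all genes. Near Corin, Atp10d, 1.25 kb away on the other strand, had 417 ± 156 against 301 ± 62.1 (SD, n = 4 each), for a log2 difference of 0.42 (adjusted p = 0.603 by limma), Nipal1 had 0.28, Commd8 0.09 and Nfxl1 0.04. Near App, Jam2 had -0.16, Atp5j 0.07 and Gabpa 0.12.

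**Figure D4:**
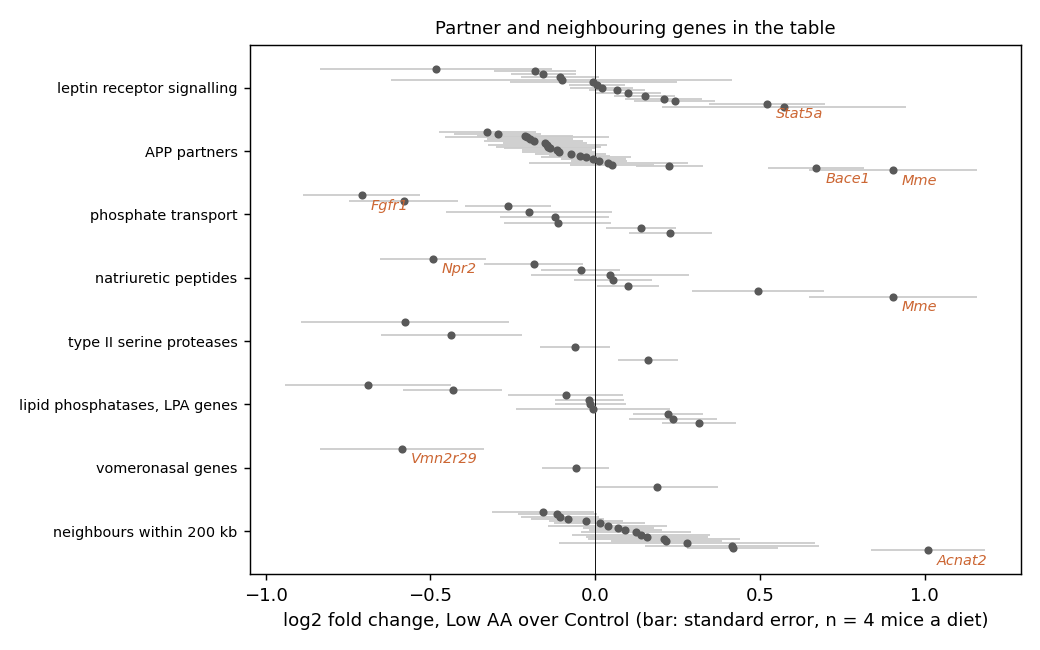
Log2 fold change with its standard error (4 mice a diet) for the partner genes of each pathway list and for the listed genes within 200 kb of a member, with Mme shown in both of its lists. Acnat2 at 1.01 is the highest of the points drawn, Mme at 0.90 and Bace1 at 0.67 come next, and Fgfr1 at -0.71 is the lowest.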

How the data were processed

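Livers of 8 mice were profiled by polyA RNA-Seq with stranded libraries and reads of 100 bases. Per the labels, the submitters' processing notes name STAR 2.5.0a, RSEM 1.2.6, edgeR 3.10.5 and the mm10 build. The authors deposited 1 table of whole numbers, treated here as a score. They were taken as read counts scaled per mouse and rounded, inferred from totals, medians and gaps or doublings among low whole numbers. That trace was weak in Control mouse 3, with 0 gaps and 1 doubling. How the values were scaled is not given in the sources used here. A deposited signed fold change, a score, and the deposited FDR, a q-value, were not used.

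After adding 1 and taking log2, genes were fitted by diet in limma (version 3.58.1, R 4.3.3) with its trend option, and p-values were adjusted over all 11784 genes by the Benjamini-Hochberg method. This scale understates the change of genes with low values. The code was also run on simulated data, with spreads shuffled between genes. That run could not test the trend option, because the shuffling removed the link between level and spread. Mice were group housed, and which mice shared a cage is not given. The p-values measure the spread between these mice and treat each as independent, so cage and diet cannot be told apart. The members and lists were chosen with earlier results of these data known. Genes named were the members, in each list those called and the 2 with the smallest p, every listed neighbour, the 2 nearest profiles and the other genes called higher. Further list members were named after their values were seen, for their role, such as Stat3, Socs3, the secretases and Tmprss6, or for their unadjusted p. Symbols were matched to GENCODE M21 (GRCm38) directly or through RefSeq synonyms for 11666 of 11784 genes. A few genes that this rule or these lists hold are not reported here. The comparison of protein sequences that had been planned was not made. Figures were drawn with matplotlib 3.10.9.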

Additional observations from a re-analysis of the deposited data

Results flagged for a closer look

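For the 6 genes, their neighbours and the summed markers, the log2 values of each diet's 4 mice were searched for a lone distant mouse. In 3 of these 66 sets one was found, where chance gives about 1 in 20. Control mouse 2 stood above the other Control mice for the pancreatic acinar marker Cela1 (gap over range 0.945). Low AA mouse 3 stood below the others of its diet for Commd8, a neighbour of Corin (0.894), and Control mouse 4 above for Jam2, a neighbour of App (0.897). None of the 6 genes was among them.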

How the results depend on the processing

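The 6 genes were higher on the Low AA diet in all 11 alternatives run on them, and 6 of 6 were without overlap with equal column totals as well. The choice of the members fixed this direction. With no overlap between diets, neither a left-out mouse nor another pseudocount could reverse it, and the column totals were close to each other. The limma call of the 6 genes, fixed by choice in the main fit, held less evenly. The alternatives reuse the values that picked the genes, so a call kept describes those values and is no test of the diet. Lepr lost it with equal column totals, and Lepr and Slc34a2 lost it without the mean-variance trend. Whichever mouse was left out, Vmn2r3, Corin and App kept it, and E130309F12Rik lost it without Low AA mouse 2 or 3. Slc34a2 kept it only without Control mouse 1 or 2, and Lepr only without Control mouse 4. With each mouse left out, log2 fold changes ran from 4.57 to 5.13 for Vmn2r3, 3.22 to 4.15 for Slc34a2, 2.51 to 2.91 for E130309F12Rik, 2.10 to 2.51 for Corin, 1.82 to 2.38 for Lepr and 1.21 to 1.37 for App. The pseudocount moved the low genes most. Vmn2r3 was at 6.80 with 0.1 and 3.09 with 5, where Slc34a2, at 3.43, was above it, and E130309F12Rik was at 2.06 with 5. Over all genes, 12 were called higher and 35 lower. These counts were 5 and 14 among the 8000 genes with the highest mean, where Vmn2r3, Slc34a2, E130309F12Rik and Corin are not tested and Lepr is not called, and 7 and 23 with no mean-variance trend. With a mouse left out they ran from 4 to 26 and from 12 to 51, lowest without Low AA mouse 3 and highest without Control mouse 2. They were 6 and 15 without Low AA mouse 1 and 5 and 14 without Low AA mouse 2, and 19 were lower without Control mouse 1 and 23 without Control mouse 4. In the APP list 0 were called, and from 0 to 1 with a mouse left out, the 1 being Bace1 without Low AA mouse 4, and the other lists stayed at 0 in each alternative. Acnat2 did not pass with equal column totals, where the limma adjusted p was 0.0711, nor without any 1 mouse other than Low AA mouse 4. No paired analysis was possible because the labels give mouse codes that are not shared between diets. Depth limits Vmn2r3 and E130309F12Rik, whose Control values are under 10 scaled read counts.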
